A study of Mus musculus with 9 samples.

Results

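The genes described here are Ceacam1, Ceacam2 and Ceacam10, 3 members of the mouse carcinoembryonic antigen-related cell adhesion molecule family, in the submandibular gland (SMG) of male mice. These 3 were taken by name from the 17562 genes of the deposited normalized table, with earlier results of the same comparison known, and their differences between genotypes are given below as a description. The genes were chosen by their levels in this same comparison of genotypes. Nothing is therefore read from their calls, from their ranks among all genes or from groups that do not overlap. The libraries came from the whole SMGs of adult male mice on a C57BL/6 background, 4 wild type (WT) and 5 double knockout (DKO), with 1 library for each mouse. DKO mice lacked Hs3st3a1 and Hs3st3b1, which encode heparan sulfate 3-O-sulfotransferases, in every cell: Hs3st3b1 was disrupted by a LacZ cassette, and Hs3st3a1 by a frameshift deletion in its first exon made with zinc finger nucleases on top of the Hs3st3b1 knockout allele. Several founder lines were selected in the study, and the line behind these 5 mice is not given in the sources used here. The study asked how the loss of both enzymes changed the adult gland.

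CEACAM proteins belong to the immunoglobulin superfamily. CEACAM1 is a transmembrane adhesion molecule of epithelial cells, endothelium and leukocytes that binds other CEACAM1 molecules on neighbouring cells and signals through SHP-1 and SHP-2 phosphatases when its long cytoplasmic tail is phosphorylated. CEACAM2 is its close paralog in rodents and CEACAM10 is a secreted member, and the pregnancy-specific glycoprotein (Psg) genes form the sister branch of the family.

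In GRCm38 coordinates, Ceacam10 (ENSMUSG00000054169) lies at chr7:24777206-24784657 on the plus strand, Ceacam1 (ENSMUSG00000074272) at chr7:25461707-25477603 on the minus strand and Ceacam2 (ENSMUSG00000054385) at chr7:25516042-25539857 on the minus strand. The starts of Ceacam1 and Ceacam2 are 62.3 kb apart, and those of Ceacam10 and Ceacam1 are 700.4 kb apart. The 250 bases before the first RefSeq start site of each gene (GRCm38.p6) are shown because the 3 windows are related in sequence, which the choice of genes did not use. Capitals in Ceacam1 and Ceacam10 mark their longest identical run, and capitals in Ceacam2 mark its longest run shared with Ceacam1. The windows are chr7:25477626-25477875 (minus strand) for Ceacam1, chr7:24776917-24777166 (plus strand) for Ceacam10 and chr7:25540005-25540254 (minus strand) for Ceacam2, each written 5′ to 3′.
Ceacam1: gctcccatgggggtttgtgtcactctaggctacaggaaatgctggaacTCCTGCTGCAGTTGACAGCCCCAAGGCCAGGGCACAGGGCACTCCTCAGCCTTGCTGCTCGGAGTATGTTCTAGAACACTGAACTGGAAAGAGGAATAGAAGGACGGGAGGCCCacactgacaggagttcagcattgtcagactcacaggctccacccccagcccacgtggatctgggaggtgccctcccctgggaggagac
Ceacam10: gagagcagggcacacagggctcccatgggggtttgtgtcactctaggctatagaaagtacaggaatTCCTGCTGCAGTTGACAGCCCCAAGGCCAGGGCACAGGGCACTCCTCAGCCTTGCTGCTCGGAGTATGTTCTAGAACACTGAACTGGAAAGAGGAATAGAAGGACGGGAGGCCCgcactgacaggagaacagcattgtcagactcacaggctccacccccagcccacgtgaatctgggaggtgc
Ceacam2: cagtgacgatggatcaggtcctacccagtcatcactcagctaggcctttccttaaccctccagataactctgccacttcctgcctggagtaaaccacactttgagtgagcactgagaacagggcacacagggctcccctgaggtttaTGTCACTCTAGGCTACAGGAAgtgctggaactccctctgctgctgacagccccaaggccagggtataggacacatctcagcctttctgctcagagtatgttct

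The Ceacam1 and Ceacam10 windows aligned over 232 columns with 222 identical bases (95.7%) and shared an unbroken run of 114 bases. The Ceacam2 window was more distant and shifted along the alignment: it matched Ceacam1 at 104 of 120 columns (86.7%), with a longest run of 21 bases, and Ceacam10 at 117 of 138 columns (84.8%), with a longest run of 20. The E-box CACGTG, which reads the same on both strands and is the sequence bound by USF factors, occurred once in the Ceacam1 window, 32 bases before the start, and once in the Ceacam10 window, 14 bases before it. It was not found in the Ceacam2 window, but that window ends in bases that match Ceacam1 upstream of its E-box. The matching place in Ceacam2 therefore lay outside the window and was not searched. The E-box was present in 6.02% of 32851 RefSeq promoter windows of the same length. The GC box GGGCGG, found in 32.7% of them on either strand, and the interferon-type response motif, found in 2.98%, matched none of the 3 windows. These are matches of letters and say nothing of whether a factor was bound.

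Read totals ran from 20653492 to 37870519 in the WT libraries and from 17053747 to 34683690 in the DKO libraries. Hs3st3a1 had 3 to 14 reads in each WT library and 0 in each DKO library, and Hs3st3b1 had 67 to 216 reads in WT and 7 to 45 in DKO (log2 fold change -2.11, SE 0.34, adjusted p = 0.0478, edgeR quasi-likelihood test with Benjamini-Hochberg adjustment), so both targeted genes went with the labels. Markers of secretory acini and granular ducts, which define the male SMG, were abundant. Their summed levels, in read counts scaled to a common library total (CPM), were 109594 to 177680 in WT and 195664 to 364179 in DKO for 6 acinar markers, and 24073 to 42852 in WT and 13362 to 20454 in DKO for 4 granular duct markers. Of the acinar markers, Pip, Car6, Prol1 and Lpo had the lowest p, and the duct markers were Klk1b22, Klk1b9, Egf and Klk1. Klk1 had a positive log2 fold change (0.58), while the other 3 duct markers were negative (-1.91 to -2.15). None of the acinar or duct markers passed the threshold in edgeR, although 5 of 6 and 4 of 4 had an unadjusted p under 0.05 and DESeq2 called 3 and 4. Over all tested genes, 14.5% had an unadjusted p under 0.05, edgeR called 0.629% (0.462% lower in DKO) and DESeq2 called 4.55%. The 5 myoepithelial markers summed to 588 to 953 CPM in WT and 214 to 526 in DKO. All 5 had negative log2 fold changes (-1.06 to -1.47). With edgeR 3 of them passed (Tagln, Myh11 and Mylk), while Cnn1 and Acta2 did not (adjusted p = 0.0506 for each). DESeq2 called all 5, where it called 4.55% of all genes. The 3 edgeR calls held in only 2 of 9 fits that left out 1 library, those without WT replicate 2 and DKO replicate 4. None of the 3 was made with upper quartile scaling or limma-voom. DKO replicate 1 stood apart in the parotid markers Amy1, Bpifa2 and Dnase1, which summed to 8105 CPM there, 68.5 to 99.2 in the other DKO libraries and 27.8 to 57.8 in WT. Markers of the adjoining sublingual gland summed to 1.03 to 58.0 CPM in WT and 0.550 to 136 in DKO, and none of the 3 tested passed with edgeR or DESeq2 or had an unadjusted p under 0.05. None of the 3 parotid markers passed with edgeR, and 2 had an unadjusted p under 0.05. DESeq2 did not call Dnase1 and gave no adjusted p for Amy1 and Bpifa2.

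Ceacam1 was the only one of the 3 genes that was well expressed, and it was slightly higher in DKO glands. It gave 84.2, 102, 97.5 and 104 CPM in the 4 WT libraries, from 1887 to 4411 reads. The 5 DKO libraries gave 104, 119, 135, 114 and 134 CPM, from 1850 to 3566 reads. All DKO values lay above all WT values, but the gap was narrow, with the lowest DKO library at 104.473 CPM and the highest WT library at 103.526. The means were 96.7 ± 8.71 CPM (SD, n = 4) in WT and 121 ± 13.2 (SD, n = 5) in DKO, a log2 fold change of 0.33 (SE 0.11), or 1.25-fold. Among the 13842 genes tested, 13.2% had a larger log2 fold change. In whole-gland RNA, more cells of a type and more RNA per cell cannot be told apart, and likewise fewer cells and less RNA.

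Ceacam10 was low in WT glands and higher in all DKO glands, several times so by the group means. Its WT libraries gave 0.803, 1.22, 0.685 and 0.558 CPM, from 18, 32, 31 and 13 reads. Its DKO libraries gave 3.11, 2.92, 3.62, 2.21 and 3.92 CPM, from 106, 71, 79, 56 and 54 reads. The groups did not overlap, and the lowest DKO library, replicate 4, had a 95% exact Poisson interval of 1.67 to 2.87 CPM, which overlapped that of the highest WT library, replicate 2 (0.837 to 1.73 CPM). The means were 0.817 ± 0.289 CPM (SD, n = 4) and 3.16 ± 0.660 (SD, n = 5), a log2 fold change of 1.94 (SE 0.27), or 3.84-fold, and only 0.303% of the tested genes had a larger one. These intervals cover counting error only, since PCR copies cannot be told from separate molecules here.

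Ceacam2 was low in both genotypes and the most variable of the 3. It gave 1.34, 2.26, 1.99 and 1.76 CPM in WT, from 30 to 90 reads, and 4.16, 2.26, 6.69, 1.90 and 3.84 CPM in DKO, from 48 to 146 reads. DKO replicates 1, 3 and 5 were clearly above the WT values, DKO replicate 2 was level with the highest WT library and DKO replicate 4 lay within the WT range, so the groups overlapped. The means were 1.84 ± 0.388 CPM (SD, n = 4) and 3.77 ± 1.90 (SD, n = 5), a log2 fold change of 1.03 (SE 0.34), or 2.04-fold. The coefficient of variation among DKO libraries was 50.4%, against 11.1% from counting alone, and the highest DKO library was 3.53 times the lowest.

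**Figure D1:**
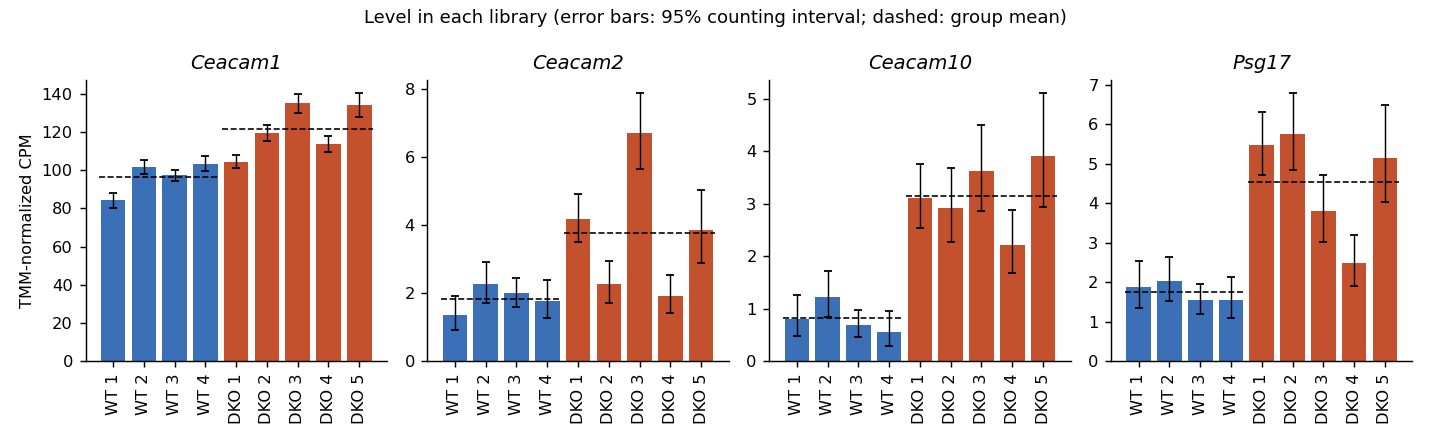
CPM of Ceacam1, Ceacam2, Ceacam10 and Psg17 (vertical axes, linear and starting at 0), with a bar for each WT and DKO library. Error bars show the 95% exact Poisson interval of the count, and dashed lines the group means. DKO bars of Ceacam10 all lie above the WT bars, and those of Ceacam1 do so by a narrow margin. DKO bars of Ceacam2 spread from 1.90 to 6.69 CPM and overlap WT. Psg17 is described further below.

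With edgeR, 1 of the 3 genes, Ceacam10, had an adjusted p under 0.05, where 0.629% of all tested genes did so in either direction 0.166% were called higher in DKO and 0.462% lower. With DESeq2 the same single gene was called, where 4.55% of genes were called and 1.81% higher in DKO. In 2 of the 3, Ceacam1 and Ceacam10, the lowest DKO value exceeded the highest WT value, as it did for 2.49% of all tested genes. Because the genes were chosen by this comparison, nothing is read from these counts. The Ceacam10 call was lost when any library but WT replicate 2 or DKO replicate 4 was left out, although its log2 fold change stayed between 1.80 and 2.20. Leaving out 1 library at a time moved Ceacam1 between 0.27 and 0.38 and Ceacam2 between 0.72, without DKO replicate 3, and 1.2, without DKO replicate 4.

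The small Ceacam1 difference depended on the scaling of the libraries. When CPM were scaled by total reads alone, its log2 fold change was 0.02, while the median over all tested genes moved from 0.0146 to -0.278. Relative to that median Ceacam1 was higher by 0.30, Ceacam2 by 0.95 and Ceacam10 by 1.90 on the log2 scale.

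The titles of the libraries carry animal numbers that fall into 3 ranges, which the labels do not describe as batches, and DKO was higher than WT for all 3 genes within each. In the range of lowest numbers (2 WT, 2 DKO) the log2 difference was 0.27 for Ceacam1, 0.82 for Ceacam2 and 1.60 for Ceacam10. In the middle range (1 WT, 2 DKO) it was 0.34, 0.44 and 2.10, in the same order. In the range of highest numbers (1 WT, 1 DKO) it was 0.38, 1.93 and 2.70. Ceacam10 had the widest difference of the 3 genes in each range, and that of Ceacam2 varied most.

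Per kilobase of exon, the family output of the gland came mostly from Ceacam1. Divided by the length of merged exons, Ceacam1 stood at 16.7 ± 1.5 CPM per kb in WT, a level above that of 89.4% of tested genes, and at 20.9 ± 2.28 in DKO. In WT, Ceacam10 (0.546 ± 0.193 CPM per kb) and Ceacam2 (0.485 ± 0.103) did not differ beyond their spread. In DKO, Ceacam10 stood at 2.11 ± 0.441 CPM per kb and Ceacam2 at 0.995 ± 0.502, with ranges that overlapped. With the longest transcript as the length the order was unchanged, and Ceacam1 came to 26.5 CPM per kb in WT, over 1.5 times its level by merged exons. As a share of the 3 genes' summed level per kb, Ceacam1 made up 94.2 ± 1.23% in WT and 87.2 ± 2.63% in DKO. The share of Ceacam10 was 3.10 ± 1.02% in WT and 8.74 ± 1.21% in DKO, and that of Ceacam2 was 2.72 ± 0.396% and 4.06 ± 1.75%.

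**Figure D2:**
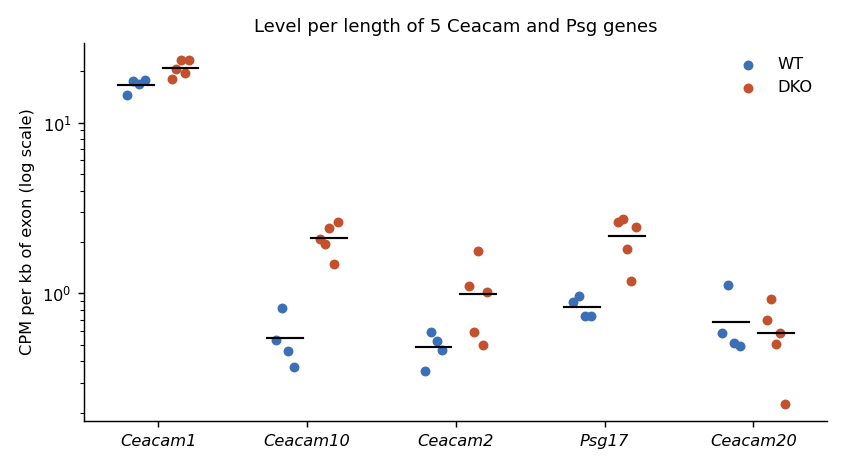
Level in CPM per kb of merged exon (vertical axis, log scale) for the 3 Ceacam genes, Psg17 and Ceacam20, with a point for each WT and DKO library and a bar for each group mean. Ceacam1 sits over 1 order of magnitude above the other genes in WT, and Ceacam10 and Psg17 move furthest between the genotypes.

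Ceacam1 and Ceacam2 share much of their sequence, which limits how well their reads can be told apart. Of the 50-base stretches in the annotated transcripts (GENCODE M21), 46.7% of those of Ceacam2 also occurred in Ceacam1, and 29.6% of those of Ceacam1 also occurred in Ceacam2. Ceacam10 was nearly separate, with 3% of its stretches in Ceacam1. How reads that matched more than 1 gene were counted is not given in the sources used here, and Ceacam1 had many more reads than Ceacam2 in each library. The Ceacam2 values are therefore uncertain.

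Among the rest of the family, 13 other Ceacam genes and 14 Psg genes were annotated, all on chromosome 7. Of the other Ceacam genes, 8 had 0 reads in all libraries (Ceacam5, Ceacam9, Ceacam11 to Ceacam14, Ceacam16 and the pseudogene Ceacam-ps1). Ceacam3, Ceacam15, Ceacam18 and Ceacam19 had at most 6 reads in a library and could not be tested. A count of 0 allows up to 3 reads in that library. The remaining one, Ceacam20, a transmembrane member known from intestinal microvilli, stood at 1.95 ± 0.849 CPM (SD, n = 4) in WT and 1.70 ± 0.742 (SD, n = 5) in DKO. Its log2 fold change of -0.16 (SE 0.36, adjusted p = 0.893, edgeR) did not pass the test, and its sign turned when WT replicate 2 or DKO replicate 5 was left out.

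Psg17 was the only Psg gene expressed well enough to test, and it was chosen for description after its values were seen. It encodes a pregnancy-specific glycoprotein, a secreted placental product, and lies at chr7:18813937-18821607 on the minus strand (ENSMUSG00000004540). It gave 1.87, 2.03, 1.55 and 1.55 CPM in WT, from 36 to 70 reads, and 5.48, 5.76, 3.80, 2.49 and 5.15 CPM in DKO, from 63 to 187 reads. All DKO libraries were above all WT libraries. It rose by a log2 fold change of 1.38 (SE 0.25, adjusted p = 0.0478 with edgeR's quasi-likelihood test and 8.16e-05 with DESeq2, both with Benjamini-Hochberg adjustment). The call held in 2 of 9 fits that left out 1 library, those without WT replicate 2 and DKO replicate 4, with adjusted p between 0.0149 and 0.198 over the 9. Of its 50-base stretches, 8.73% occurred in other genes. The other 13 Psg genes had at most 3 reads in a library, and 9 of them had 0 in all libraries.

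**Figure D3:**
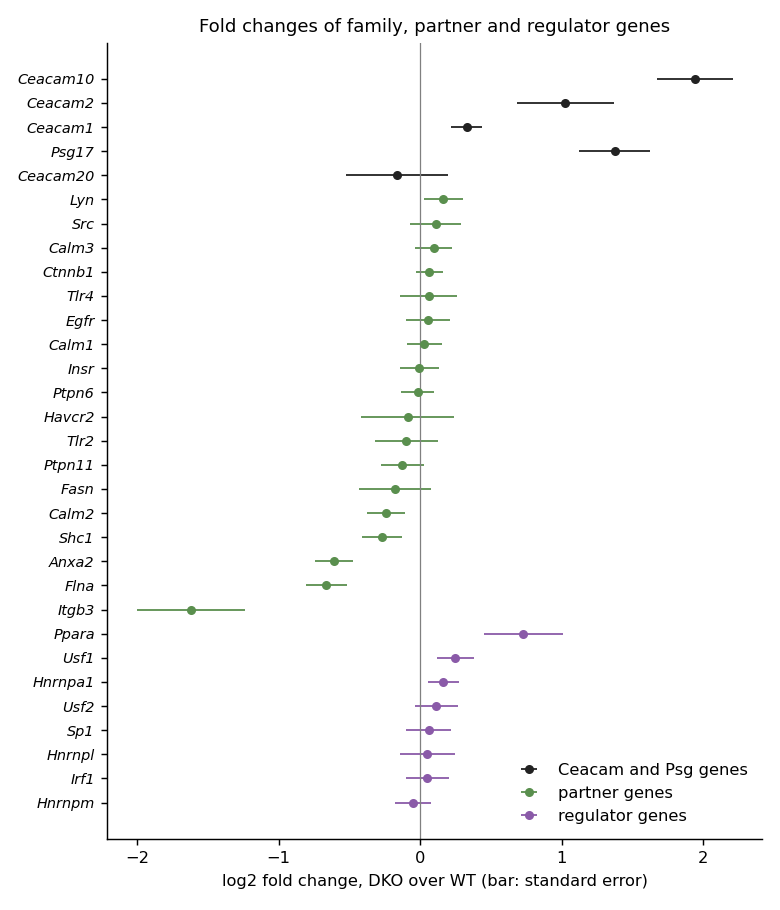
Log2 fold change, DKO over WT, with error bars of 1 SE, for the 3 Ceacam genes, Psg17, Ceacam20 and the genes of the signalling partner and regulator lists. Ceacam10 (1.94) and Psg17 (1.38) lie furthest to the right, while Itgb3 (-1.62) lies furthest to the left with a wide error.

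Proteins that bind or signal with CEACAM1 were followed as a list of 18 genes, of which 18 were tested. None passed the threshold with edgeR, 3 had an unadjusted p under 0.05, and DESeq2 called 3. Over all tested genes 0.629% passed with edgeR, 14.5% had an unadjusted p under 0.05, and DESeq2 called 4.55%. The median log2 fold change was -0.05, against 0.0146 over all tested genes. Ptpn6 and Ptpn11, which encode the SHP-1 and SHP-2 phosphatases recruited by the CEACAM1 tail, had log2 fold changes of -0.02 (SE 0.12, adjusted p = 0.969, edgeR) and -0.13 (SE 0.15, adjusted p = 0.776, edgeR). The 3 genes with the lowest p encode the actin cross-linker filamin A (Flna, -0.66, SE 0.14), annexin A2 (Anxa2, -0.61, SE 0.13) and integrin beta chain 3 (Itgb3, -1.62, SE 0.38), and edgeR's adjusted p was 0.0568, 0.0568 and 0.0654. These were also the 3 that DESeq2 called lower. The adaptor gene Shc1 followed at -0.27 (SE 0.14, adjusted p = 0.432, edgeR).

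Of 9 genes for factors known to act on Ceacam1 transcription or splicing, 8 were tested and none passed with edgeR or DESeq2. Among the 8, 1 had an unadjusted p under 0.05, where 14.5% of all tested genes did. That gene, Ppara, a lipid-sensing nuclear receptor, had a log2 fold change of 0.73 (SE 0.28, adjusted p = 0.250, edgeR). Usf1 and Usf2, which encode E-box binding factors, stood at 0.25 (SE 0.13) and 0.11 (SE 0.15), and Irf1, the interferon-regulated activator, at 0.05 (SE 0.15). The splicing factors that set the length of the CEACAM1 tail gave 0.16 (SE 0.11) for Hnrnpa1, 0.05 (SE 0.19) for Hnrnpl and -0.05 (SE 0.13) for Hnrnpm. Gene counts do not separate the long and short tail isoforms, so the isoforms of Ceacam1 were not measured.

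Markers of cell types that could carry these transcripts were set beside these values. All 6 acinar markers had a positive log2 fold change, with a median of 0.73, and their summed level did not overlap between the groups. Most of this sum was Car6, Prol1 and Pip (WT means 71644.5, 45920.6 and 23225.4 CPM). Each of the other acinar markers overlapped between the groups. Endothelial cells are another known source of CEACAM1. Their 6 markers all had positive log2 fold changes (median 0.27) and summed to 20.4 to 28.0 CPM in WT and 28.7 to 33.5 in DKO. None of the 6 passed with edgeR or DESeq2. Only Kdr had an unadjusted p under 0.05, where 14.5% of all tested genes did. Emcn, Pecam1 and Cdh5 followed Kdr. Lymphocyte markers were near 0, with sums of 0.612 to 1.24 CPM in WT and 0.329 to 1.79 in DKO, and 1 of 6 could be tested (Cd79b). Myeloid and neutrophil markers summed to 28.3 to 35.5 CPM in WT and 18.0 to 39.0 in DKO. None of the 4 tested passed with edgeR or had an unadjusted p under 0.05. Most of this sum was Csf1r and Adgre1 (log2 fold changes -0.30 and -0.46), while Csf3r and Itgam had positive ones (0.98 and 0.44). The untested markers had at most 6 reads in a library, so the sum says little of neutrophils. The part of any of these cell types in the Ceacam differences was not tested.

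The variation that the genotype did not account for was compared with the marker sums. The acinar sum was mostly Car6, Prol1 and Pip, and the myeloid sum mostly Csf1r and Adgre1. In DKO the granular duct sum was mostly Klk1 (mean 10414 of 16837 CPM), the duct marker with a positive log2 fold change. In WT its largest part was Klk1b9 (mean 14182 of 33340 CPM). With the group means removed from log2 CPM, Pearson's r over the 9 libraries between Ceacam1 and the acinar sum was 0.91, and it was 0.64 for Ceacam2 and 0.60 for Ceacam10. With the myoepithelial sum it was -0.65 for Ceacam1, -0.92 for Ceacam2 and -0.76 for Ceacam10. No other list came near the 0.91 of Ceacam1 or the -0.92 of Ceacam2, but some came near the remaining values. For Ceacam1, Ceacam2 and Ceacam10 in turn, the granular duct sum gave -0.68, -0.66 and -0.52. The myeloid sum gave -0.71, -0.63 and -0.61. The endothelial sum gave 0.63 for Ceacam1, 0.17 for Ceacam2 and -0.01 for Ceacam10, and the lymphocyte, sublingual and parotid sums gave -0.69 to 0.2. The points share library size and scaling, and abundant acinar transcripts take a large part of each library, so these values are descriptions only. Psg17 followed the acinar sum less closely (r = 0.27). Among the 3 genes themselves, r with the group means removed was 0.51 for Ceacam1 with Ceacam2, 0.31 for Ceacam1 with Ceacam10 and 0.58 for Ceacam2 with Ceacam10.

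For each gene the 5 tested genes with the most similar pattern were taken by Pearson's r of log2 CPM over the 9 libraries, both genotypes together. For Ceacam1 they were Aldh7a1 (r = 0.987), Tcn2 (0.975), Pycr1 (0.968), Mia3 (0.966) and Agt (0.966). For Ceacam2 they were Chst7 (0.981), Ormdl3 (0.976), Rbm3 (0.976), Nkiras1 (0.972) and P2rx4 (0.971). For Ceacam10 they were Creb3l4 (0.983), Slc6a14 (0.961), Tspan6 (0.957), Abhd11os (0.953) and 2810030D12Rik (0.952). The 3 lists had no gene in common. With the group means removed, Aldh7a1 stayed among the 5 for Ceacam1 (r = 0.971), Chst7, Rbm3 and Nkiras1 for Ceacam2 (0.967, 0.971 and 0.967), and Creb3l4 for Ceacam10 (0.929). Creb3l4, a transcription factor of the endoplasmic reticulum stress sensor family, gave 7.95, 12.6, 7.98 and 7.17 CPM in WT and 24.2, 21.7, 29.1, 14.4 and 25.9 in DKO. Like Ceacam10, it was lowest among DKO libraries in replicate 4 and highest among WT libraries in replicate 2. Creb3l4 was picked for its likeness to Ceacam10, so this agreement is not a result.

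**Figure D4:**
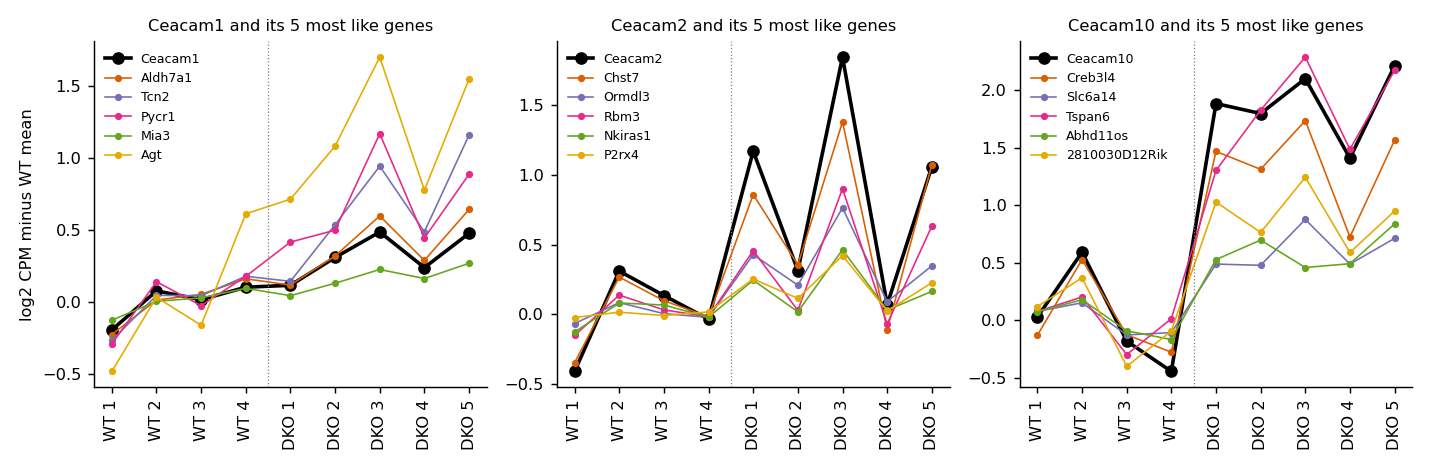
Log2 CPM of each Ceacam gene (black) and its 5 most similar genes (colours), minus the WT mean of each gene (vertical axis), by library (horizontal axis, WT then DKO). These genes were picked for their likeness, so the agreement of the lines is not a result, and it is not complete: Ceacam1 was lower in WT replicate 3 than in WT replicate 2 and Aldh7a1 higher.

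Genes near them on chromosome 7 were counted in the same way. Within 500 kb of the start of any of the 3 there were 99 other annotated genes, 59 of them protein-coding, of which 39 were tested. Their median log2 fold change was 0.03, against 0.0146 over all tested genes. With edgeR 1 of the 39 passed and 9 had an unadjusted p under 0.05, where 0.629% and 14.5% of all tested genes did so, and DESeq2 called 2, where it called 4.55%. The one called by edgeR was Cyp2b10, a xenobiotic-metabolising cytochrome P450 358 kb from Ceacam2. It fell by 1.81 on the log2 scale (SE 0.33, adjusted p = 0.0478, edgeR), from 91.7 ± 42.1 CPM (SD, n = 4) in WT to 26.2 ± 9.08 (SD, n = 5) in DKO. This call held only without WT replicate 2 or DKO replicate 4 among the 9 fits that left out 1 library. DESeq2 called Cyp2b10 and 1 further gene, Kcnn4, a calcium-activated potassium channel (log2 fold change 0.65; adjusted p = 0.138 with edgeR and 0.0257 with DESeq2). Around Ceacam10 none of 22 tested genes passed with edgeR and 4 had an unadjusted p under 0.05, against 14.5% of all tested genes, with log2 fold changes from -0.57 to 0.96. Its nearest tested genes were Gm26550 at -139 kb (0.96) and the ribosomal protein gene Rps19 at 107 kb (0.32), where negative distances are toward lower coordinates. On that side of Ceacam1 the nearest tested gene was the chemokine gene Cxcl17 (-64.7 kb, log2 fold change -0.38, adjusted p = 0.179, edgeR), and beyond Ceacam2 it was Dmac2 (79.6 kb, 0.05).

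**Figure D5:**
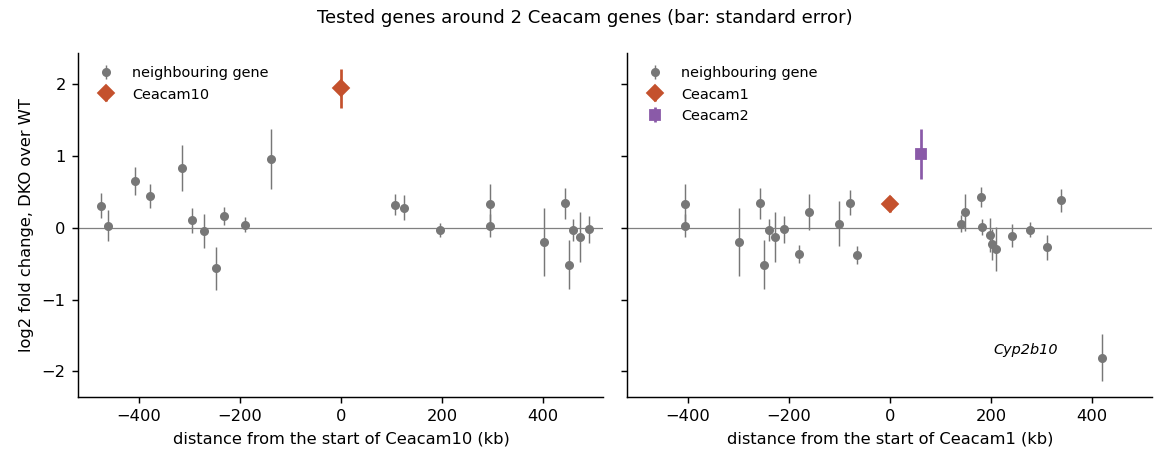
Log2 fold change, DKO over WT, of tested genes (vertical axis, error bars 1 SE) against the distance of their start from that of Ceacam10 (left) or Ceacam1 (right) in kb along the chromosome (horizontal axis, coordinate direction). Most neighbours scatter around 0, with Cyp2b10 at -1.81 as the lowest, while Ceacam10 stands at 1.94.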

How the data were processed

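RNA from whole male SMGs (4 WT, 5 DKO) was sequenced from unstranded Nextera XT libraries, 1 for each mouse, so p-values measure the spread between these libraries. The submitters' processing notes name STAR 2.5.2a, DESeq2, edgeR and limma; the gene counter is not given in the sources used here. The authors deposited raw read counts per gene (48733 genes), counts filtered to 17562 genes, and a normalized signal, which equals the filtered counts divided by 1 factor for each library. Raw counts were used here.

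Genes passing filterByExpr (minimum count 10, minimum total 15; 13842 genes) were tested with edgeR 4.0.16 (R 4.3.3), TMM scaling and the legacy quasi-likelihood test, at a Benjamini-Hochberg adjusted p of 0.05. SE was the log2 fold change over the root of F. CPM used TMM library sizes, and log2 CPM a prior count of 2. Alternatives included DESeq2 1.42.0, limma 3.58.1 (voom), other scalings and leaving out libraries; the edgeR 4 fit and leaving out DKO replicates 1 and 3 together were added after the data were seen.

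The members and lists were chosen with earlier results of these data known. Named genes were the members, other Ceacam genes, the targeted genes, called genes of each list or otherwise the 4 with the lowest p, 6 fixed partner and regulator genes (Ptpn6, Ptpn11, Irf1, Hnrnpl, Hnrnpa1, Hnrnpm), the 5 most similar genes, and neighbours called or nearest within 500 kb. Genes of lists whose values bear on no result are given as counts. Replicate numbers in the labels did not pair the libraries. One further duct marker of the list as first written is not reported here and enters none of the values.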

Additional observations from a re-analysis of the deposited data

Results flagged for a closer look

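In all, 6 of 106 groups of libraries, over 53 genes, held 1 library far from the others by Dixon's test, and chance flags about 1 in 20 groups. WT replicate 2 was high in Ceacam20 (3.21 CPM, others 1.42 to 1.70), Egfr (5.54 CPM, others 4.46 to 4.64) and Creb3l4 (12.6 CPM, others 7.17 to 7.98). WT replicate 3 was high in Shc1 (17.2 CPM, others 12 to 12.5). DKO replicate 2 was high in Hnrnpl (145 CPM, others 80.7 to 97.6), and DKO replicate 3 in Hnrnpm (32.0 CPM, others 24.3 to 26.3). None of the 3 Ceacam genes was among them. The 53 genes did not include the parotid markers, in which DKO replicate 1 stood apart (Bpifa2 7431 CPM, other DKO libraries 43.3 to 79.1).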

How the results depend on the processing

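The log2 fold changes of Ceacam1, Ceacam2 and Ceacam10 were above 0 in all alternatives run. Over the 11 alternatives other than leaving out 1 library, they ranged from 0.02 to 0.34, 0.50 to 1.04 and 1.62 to 1.97. The lowest Ceacam1 value, 0.0186, came with total library size scaling. The number of genes called, 87, was far less stable: it was 5 with upper quartile scaling, 357 with total library size, 617 with DESeq2, 4 with limma-voom, 347 with no filter on low counts, 332 with a block for animal number range and 1 without DKO replicates 1 and 3 together. Leaving out 1 library gave 0 to 441 calls, and the genes with an unadjusted p under 0.05 were at least 1348 in each of those fits and 2006 with all libraries. The replicate block gave 0 calls (2024 genes with an unadjusted p under 0.05); same-numbered libraries deviated together with correlations of 0.0136 to 0.298, and 2 of 4 correlated best with their own number. The cause of these shifts was not tested. Psg17 was called in 9 of 20 alternatives (adjusted p from 8.16e-05 to 0.198). The log2 fold change of Ceacam20, -0.16, turned to 0.04995 with the replicate block and ranged from -0.3745 to 0.18 when 1 library was left out, above 0 without WT replicate 2 (0.18) or DKO replicate 5 (0.0167). By the longest transcript, Ceacam1 stood at 26.5 CPM per kb in WT and 33.2 in DKO, and Ceacam10 at 0.780 and 3.01. Counts of 13 to 32 reads limit the WT level of Ceacam10.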
